A study of Homo sapiens with 6 samples.

Results

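The amyloid precursor protein *APP*, its relatives *APLP1* and *APLP2*, the APP sorting receptor *SORL1* and the sheddases *ADAM10*, *ADAM17*, *BACE1* and *BACE2* were followed in HSC-4 cells with and without a γ-secretase inhibitor. The 8 genes were chosen by name, as substrates of γ-secretase in the APP family and as proteases that cut upstream of it. The rule used no threshold on their values, although the list was drawn up with earlier results of these data known. All 8 were found among the 58884 genes of the count tables, and all 8 were among the 15001 genes with enough reads to be tested. Every library came from a single cultured line, HSC-4, which was derived from a squamous cell carcinoma of the human mouth. The RNA-seq libraries, mRNA libraries built from total RNA, fell into 2 groups of 3, control cells and cells given 50 µM DAPT for 24 h. DAPT is a small molecule that blocks γ-secretase. The methods give 0.5% DMSO as the vehicle of the controls, whereas the series design speaks of normal growth medium and the labels say only control. If the controls held no DMSO, what the vehicle did and what DAPT did cannot be told apart. Nothing in the labels says that the 3 libraries of a group came from separate cultures, so the p-values measure the spread between these libraries, which may be technical.

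APP and its relatives are membrane proteins with a large ectodomain and a short cytoplasmic tail. A sheddase first releases the ectodomain. ADAM10 and ADAM17 make the α-cut within the amyloid-β stretch of APP, BACE1 makes the β-cut that starts amyloid-β, and BACE2 cuts at other places of the same stretch. γ-Secretase then cuts the remaining stub within the membrane and frees the tail, in the same way as it frees the intracellular domain of Notch after ADAM10 has shed the Notch ectodomain. SORL1 carries APP between the Golgi and endosomes and is itself shed and then cut by γ-secretase. In squamous epithelium the same sheddases release growth factors and adhesion proteins. DAPT acts on the enzyme itself, and the libraries measured RNA only, so neither cleavage nor protein was seen here.

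Of the 8 genes, *APLP2*, *SORL1* and *ADAM10* rose with DAPT and none fell. The rises were small, by 1.24-fold for *APLP2*, 1.18-fold for *SORL1* and 1.09-fold for *ADAM10*. The mean of *APP* was 667 ± 15.2 in control and 678 ± 5.71 in DAPT libraries (SD, n = 3), in counts per 1000000 reads (CPM) after scaling between libraries. *APLP1*, *ADAM17*, *BACE1* and *BACE2* did not pass the test. A gene passed when its p from the edgeR quasi-likelihood test, adjusted by Benjamini-Hochberg over all 15001 genes, was under 0.05. Calls were common in these libraries, with 35.2% of tested genes called in either direction, 17.2% higher and 18.0% lower. Among the 10237 genes with a mean level at least that of *APLP1*, 41.9% were called and 21.1% were called higher. The 3 calls among 8 genes were close to the share for all genes in either direction. All 3 were higher, a direction that held 17.2% of tested genes, and nothing is read from so short a list. No gene of the 8 changed 2-fold, a size that 2.37% of tested genes reached together with a call. The median log2 fold change was 0.09 over the 8 genes and 0.01 over all tested genes.

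The libraries held 12276313 to 16317672 counted reads, and a count of 3 corresponded to 0.184 to 0.244 CPM. This floor covers counting error only. The 8 genes had between 112 and 14924 reads per library. The Notch target *HES1* fell from 47.0 ± 4.0 to 27.5 ± 0.402 CPM (log2 fold change -0.77, SE 0.08, edgeR adjusted p = 7.2e-08), as a check of the labels. Markers of squamous epithelium were present, with 10 of 10 tested and a summed level of 5554 to 5787 CPM in control and 3599 to 3760 CPM in DAPT libraries. Among these, the basal keratin *KRT14* was low, at a mean of 3.17 and 0.443 CPM. The largest part of the sum was *KRT5*, at a mean of 2701 and 1315 CPM. The keratins, *TP63* and *SFN* were called lower, *CDH1* and *EPCAM* were called higher (log2 fold change 0.27 each) and *DSG3* was not called (-0.06). Of the fibroblast markers, 6 of 6 had a count, and their sum ranged from 57.2 to 553 CPM in control and from 50.0 to 55.2 CPM in DAPT libraries. Control replicate 1 stood apart: *COL1A2*, a fibrillar collagen of fibroblasts, was at 215 CPM there and at 0.195 to 2.02 CPM in the other 5 libraries. Summed levels in control and DAPT libraries were 10.5 to 12.9 and 8.92 to 10.6 CPM for leukocyte markers (*CD3E* at 0) and 1.24 to 1.68 and 2.41 to 2.92 CPM for endothelial markers (4 of 4). They were 31.1 to 32.8 and 23.0 to 24.3 CPM for neuron markers (4 of 5, *RBFOX3* at 0) and 1.66 to 2.96 and 1.17 to 2.31 CPM for melanocyte markers (1 of 3, *MLANA* and *TYR* at 0). The neuron markers with most reads moved in opposite directions, *NEFL* from a mean of 22.4 to 11.4 CPM and *SYT1* from 9.17 to 12.4 CPM. In bulk RNA, fewer cells of a type and less RNA per cell cannot be told apart. The test of each of the 8 genes is therefore also given without control replicate 1. The epithelial and neuronal marker sums shifted although their members moved in both directions. The endothelial sum, at no more than 2.92 CPM, shifted too, with *CDH5* from a mean of 0.328 to 1.81 CPM and *VWF* from 1.05 to 0.792 CPM. The part of these shifts in the tests was not tested.

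In GRCh38, 3 of the 8 genes lie on the long arm of chromosome 11. *APLP2* (ENSG00000084234, chr11:130068147-130144811, + strand), *SORL1* (ENSG00000137642, chr11:121452314-121633763, + strand) and *BACE1* (ENSG00000186318, chr11:117285207-117316259, - strand) are these 3, with 4.136 Mb between *BACE1* and *SORL1* and 8.434 Mb between *SORL1* and *APLP2*. *APP* (ENSG00000142192, chr21:25880550-26171128, - strand) and *BACE2* (ENSG00000182240, chr21:41167801-41282530, + strand) are 14.997 Mb apart on chromosome 21. *ADAM10* (ENSG00000137845) lies at chr15:58588809-58749791 (- strand), *ADAM17* (ENSG00000151694) at chr2:9488486-9556732 (- strand) and *APLP1* (ENSG00000105290) at chr19:35867899-35879791 (+ strand). Reads were counted over exons, from 3656 exonic bases in *APLP1* to 19408 in *SORL1*, untranslated exons included. None of the 8 shared an exonic base with another gene on its own strand, so the strand-specific counting left no read of theirs to be divided.

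The promoter windows of the genes that rose are shown first, since these 3 moved in the same direction. Of the 3 windows of *BACE1*, 1 is shown because it held the core that the Notch cofactor RBPJ binds. Among the 7 genes with a window, *BACE1* alone held this core. Each window is RefSeq sequence of GRCh38.p14 from 250 bases before to 50 after a gene start, written 5′ to 3′ on the gene's strand. Capitals mark matches on either strand to the RBPJ core TGGGAA, the E-box CACGTG or the GC box GGGCGG, a motif bound by SP factors. Adjacent GC-box matches may overlap.
APLP2, chr11:130070318-130070617 (+): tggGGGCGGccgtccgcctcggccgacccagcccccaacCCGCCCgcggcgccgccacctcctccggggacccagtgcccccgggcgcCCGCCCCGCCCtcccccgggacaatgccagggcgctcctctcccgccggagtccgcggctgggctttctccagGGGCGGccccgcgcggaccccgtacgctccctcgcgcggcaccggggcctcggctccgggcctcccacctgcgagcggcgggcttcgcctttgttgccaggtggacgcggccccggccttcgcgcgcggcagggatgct
SORL1, chr11:121452064-121452363 (+): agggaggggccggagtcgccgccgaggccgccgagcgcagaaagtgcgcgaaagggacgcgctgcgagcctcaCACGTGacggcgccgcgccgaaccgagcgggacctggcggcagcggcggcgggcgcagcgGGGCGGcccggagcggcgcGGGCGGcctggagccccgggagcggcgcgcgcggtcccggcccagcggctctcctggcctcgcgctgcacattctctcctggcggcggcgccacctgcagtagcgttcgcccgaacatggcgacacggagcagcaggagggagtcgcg
ADAM10, chr15:58749658-58749957 (-): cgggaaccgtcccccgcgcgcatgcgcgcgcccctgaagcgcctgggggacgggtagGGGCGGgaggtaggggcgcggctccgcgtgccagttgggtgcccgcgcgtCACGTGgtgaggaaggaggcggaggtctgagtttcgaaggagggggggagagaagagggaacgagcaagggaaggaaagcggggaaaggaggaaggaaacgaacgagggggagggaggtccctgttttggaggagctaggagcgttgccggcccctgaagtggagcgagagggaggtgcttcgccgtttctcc
BACE1, chr11:117316207-117316506 (-): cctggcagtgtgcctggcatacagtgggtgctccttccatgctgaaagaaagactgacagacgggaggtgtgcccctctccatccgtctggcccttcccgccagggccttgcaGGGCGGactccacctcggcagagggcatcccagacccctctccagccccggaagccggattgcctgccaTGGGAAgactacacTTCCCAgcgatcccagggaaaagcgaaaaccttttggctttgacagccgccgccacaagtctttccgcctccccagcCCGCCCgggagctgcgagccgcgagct
The *SORL1* and *ADAM10* windows each held 1 E-box, at -177 and -143 from the start, a motif found in 7.26% of 35116 RefSeq promoter windows of the same length. The *APLP2* window held 5 matches to the GC box and neither of the other motifs. The GC box was in 45.0% of all windows, and also in windows of *APLP1*, *SORL1*, *ADAM10*, *ADAM17* and *BACE1*. The RBPJ core was found at -68 and -54 in the *BACE1* window shown, and in 24.0% of all windows. It was in no other window of *BACE1* and in none of the windows of *APP*, *APLP1*, *APLP2*, *SORL1*, *ADAM10* or *ADAM17*. A missing match says only that these letters were not within this window. The windows of the genes that rose were rich in G and C, at 80.7% in *APLP2*, 78.0% in *SORL1* and 68.0% in *ADAM10*. The median of all windows was 58.7%. Among genes not called, the values were 77.7% in *APLP1*, 74.7% in *ADAM17*, 49.3 and 77.3% in *APP* and 52.3 to 64.3% in *BACE1*. *BACE2* was not among the windows.

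Among the APP family, *APLP2* rose and the other genes did not pass the test. *APLP2* encodes the widely expressed relative whose functions overlap with those of APP but which lacks the amyloid-β stretch. Its level was 741, 750.0 and 752 CPM in the 3 control libraries and 969, 905 and 914 CPM in the 3 DAPT libraries. Every DAPT library lay above every control library. The log2 fold change was 0.31 (SE 0.05, 95% interval 0.22 to 0.41, edgeR adjusted p = 2.14e-05), and 27.3% of tested genes changed by more. Without control replicate 1 the value was 0.31 (edgeR adjusted p = 5.41e-06).

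*APP* was at 685, 658 and 659.6 CPM in control and at 673, 676 and 684 CPM in DAPT libraries. The groups overlapped, and the highest library of each was at nearly the same level. Its log2 fold change of 0.02 (SE 0.05, edgeR adjusted p = 0.739) had a 95% interval of -0.07 to 0.12, or 0.951- to 1.08-fold. Of all tested genes, 93.4% changed by more. Without control replicate 1 the log2 fold change was 0.04 (edgeR adjusted p = 0.465).

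*APLP1*, known mainly from neurons, was low at 8.59, 8.59 and 9.28 CPM in control and 11.0, 10.4 and 9.30 CPM in DAPT libraries. The groups did not overlap, although the nearest libraries differed by little. The log2 fold change of 0.22 (SE 0.11, 95% interval -0.02 to 0.46) missed the threshold (edgeR adjusted p = 0.145; 0.20 and 0.219 without control replicate 1). The interval for *APLP1* was wide enough to hold both no change and a rise as large as that of *APLP2*.

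*SORL1* was at 191, 185 and 192 CPM in control and at 221, 219 and 232 CPM in DAPT libraries. The groups were clear of each other. Its log2 fold change was 0.24 (SE 0.05, 95% interval 0.14 to 0.34, edgeR adjusted p = 0.000531), and it was 0.25 without control replicate 1 (edgeR adjusted p = 0.000164). Changes larger than this were seen in 38.2% of tested genes.

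**Figure D1:**
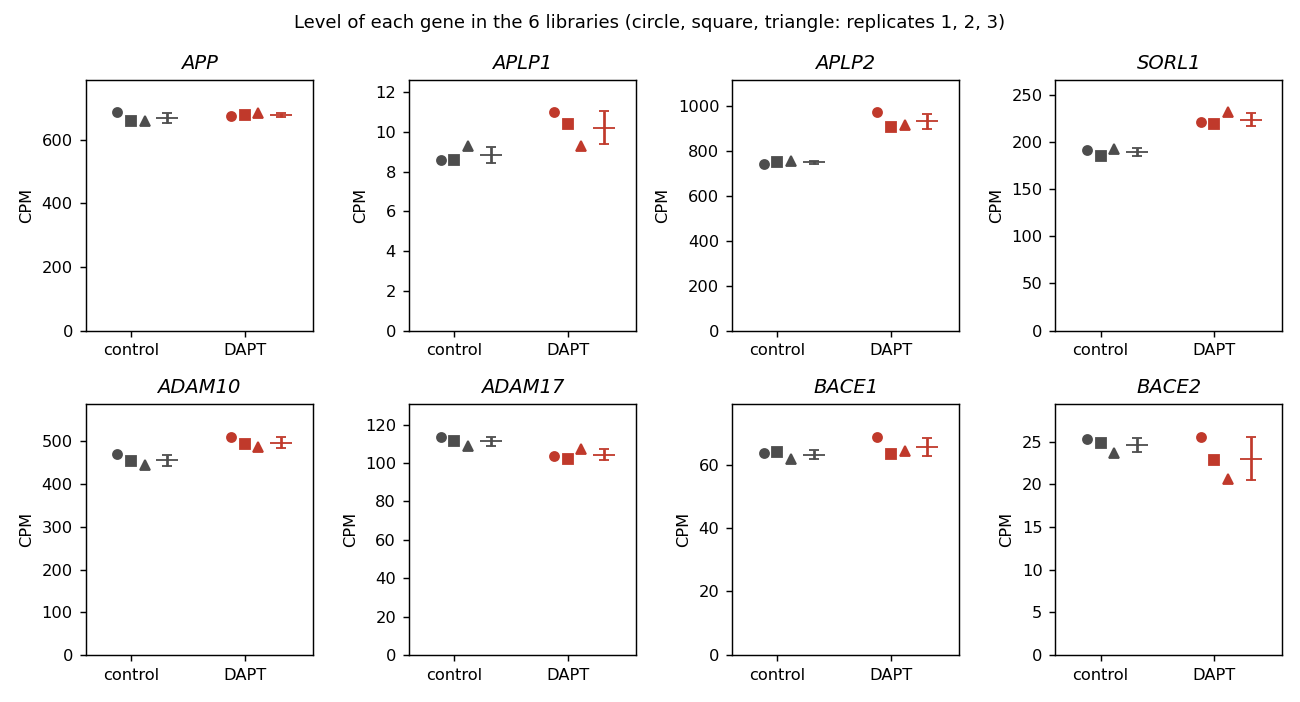
Level of each of the 8 genes in CPM (y axis, from 0) in the 3 control and 3 DAPT libraries, with circle, square and triangle for replicates 1, 2 and 3 and a bar for the mean ± SD of each group. The DAPT points of *APLP2* (905 to 969) and *SORL1* (219 to 232) lie above their control points (741 to 752 and 185 to 192), while those of *APP* are level with the controls.

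Of the sheddases, *ADAM10* was the one called. ADAM10 is the main α-secretase of APP and the sheddase of ligand-bound Notch receptors. It was at 469.9, 454 and 444 CPM in control and at 511, 494 and 487 CPM in DAPT libraries. The groups did not overlap. The log2 fold change was 0.13 (SE 0.05, 95% interval 0.03 to 0.22, edgeR adjusted p = 0.0416), and 63.8% of tested genes changed by more. The call held without control replicate 1 (log2 fold change 0.15, edgeR adjusted p = 0.00935) and was lost when any of the other 5 libraries was left out, at an adjusted p of 0.0699 to 0.197. Its direction was the same in all 16 alternatives tried, and it stayed called in 7 of them.

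*ADAM17*, the sheddase of TNF and of several EGF receptor ligands, was at 114, 111 and 109 CPM in control and at 104, 102 and 107 CPM in DAPT libraries. Each DAPT library lay below each control library. The log2 fold change of -0.09 (SE 0.05, 95% interval -0.20 to 0.01) did not pass (edgeR adjusted p = 0.163; -0.08 and 0.244 without control replicate 1). *IAH1*, which runs on the opposite strand and shares 12.3% of the *ADAM17* exonic bases, had a log2 fold change of 0.01.

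*BACE1*, the β-secretase, was at 63.8, 64.1 and 61.7 CPM in control and at 68.8, 63.2 and 64.5 CPM in DAPT libraries. The groups overlapped. The log2 fold change was 0.05 (SE 0.06, 95% interval -0.07 to 0.17, edgeR adjusted p = 0.521; 0.06 and 0.448 without control replicate 1). Its antisense RNA *BACE1-AS*, described as stabilising the *BACE1* messenger RNA, shares 26.0% of the *BACE1* exonic bases and was counted on the other strand. *RNF214*, also on that strand, shares 17.4% of them and had 258 to 426 reads per library. *BACE1-AS* was at 8.67 ± 0.819 CPM in control and 10.03 ± 1.03 CPM in DAPT libraries (SD, n = 3), a log2 fold change of 0.22 that did not pass (edgeR adjusted p = 0.164). *BACE2*, its close relative, was at 25.3, 24.9 and 23.7 CPM in control and at 25.6, 22.9 and 20.6 CPM in DAPT libraries. The DAPT libraries spread on both sides of the controls. The log2 fold change was -0.10 (SE 0.08, 95% interval -0.27 to 0.08, edgeR adjusted p = 0.408; -0.07 and 0.572 without control replicate 1).

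In all, the libraries of the 2 groups did not overlap for 5 of the 8 genes, 4 higher with DAPT (*APLP1*, *APLP2*, *SORL1* and *ADAM10*) and 1 lower (*ADAM17*). Over all tested genes the groups did not overlap for 46.3%, with 23.6% higher and 22.7% lower.

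**Figure D2:**
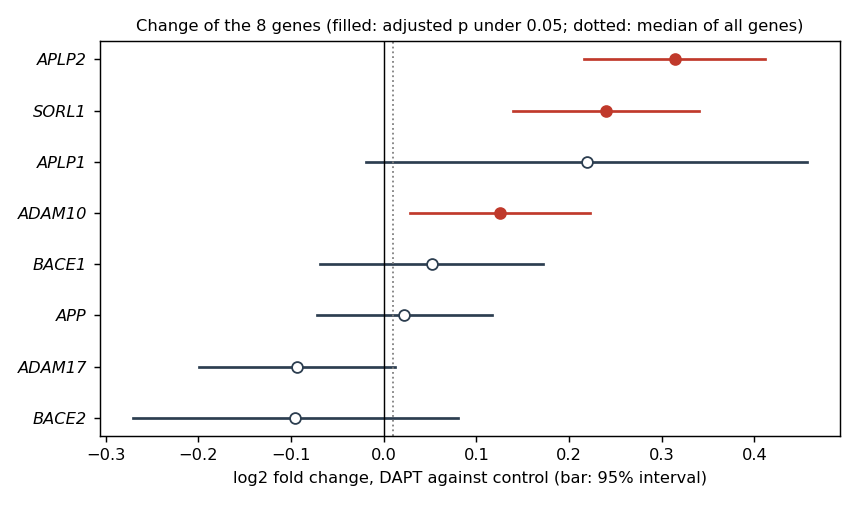
Log2 fold change of DAPT against control for the 8 genes (x axis), with the 95% interval as a bar and the median of all tested genes (0.01) as a dotted line. The 3 filled points, *APLP2*, *SORL1* and *ADAM10*, were called, and the intervals of the 5 open points reach across 0.

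Levels of different genes were compared per kilobase of exon. *APP* and *APLP2* were by far the most abundant of the 8, at a mean of 106 and 100.2 CPM per kilobase in control libraries, above 97.9% and 98.1% of tested genes over all 6 libraries. *ADAM10* followed at 28.5 CPM per kilobase, then *ADAM17* at 10.3, *SORL1* at 9.78 and *BACE1* at 8.79. *BACE2* at 2.56 and *APLP1* at 2.41 CPM per kilobase came last, and their control libraries overlapped. Every other neighbouring pair in this order was separate in the control libraries. With DAPT, *APLP2* came first at 125 CPM per kilobase and *APP* was next at 107. *SORL1* at 11.5 stood above *ADAM17* at 9.71 CPM per kilobase. In DAPT libraries, *ADAM17* overlapped with *BACE1* (9.11), and *APLP1* (2.79) overlapped with *BACE2* (2.39).

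**Figure D3:**
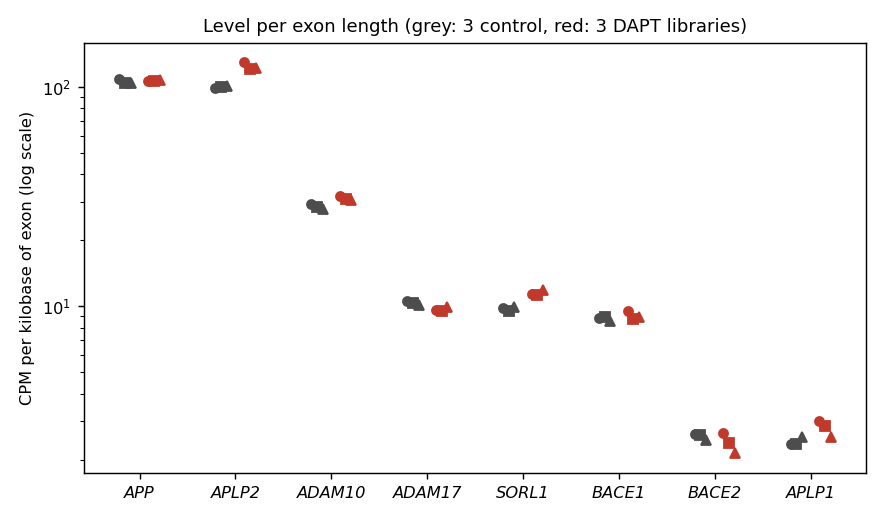
Level of each gene in CPM per kilobase of exon (y axis, log scale) in the 3 control (grey) and 3 DAPT libraries (red). *APP* and *APLP2* lie near 100 CPM per kilobase and *BACE2* and *APLP1* below 3, and *APLP2* passes *APP* in the DAPT libraries.

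As a share of the summed APP family level per kilobase, *APP* took 50.3 to 51.6% in control and 44.5 to 46.4% in DAPT libraries, and *APLP2* took 47.3 to 48.6% and 52.4 to 54.2%. *APLP1* stayed near 1% of the family, at 1.12 to 1.22% and 1.09 to 1.25%. Among the 4 sheddases, *ADAM10* took 56.5 to 57.1% in control and 59.1 to 59.9% in DAPT libraries. *ADAM17* took 20.5 to 20.7% and 17.9 to 19.4%. The shares of *BACE1* overlapped between groups, at 17.2 to 17.7% and 17.1 to 17.8%, and *BACE2* took 5.03 to 5.15% and 4.14 to 4.93%.

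Ratios of 2 genes within a library do not depend on how libraries are scaled, and 4 pairs of relatives or partners were compared. The *APP*/*APLP2* ratio of read counts was 0.924, 0.877 and 0.878 in control and 0.695, 0.748 and 0.749 in DAPT libraries, a fall of the mean log2 ratio by 0.29. The *ADAM10*/*ADAM17* ratio was 4.13, 4.08 and 4.08 in control and 4.92, 4.84 and 4.54 in DAPT libraries, 0.22 higher on the log2 scale. The *SORL1*/*APP* ratio was 0.279, 0.282 and 0.292 in control and 0.329, 0.324 and 0.339 in DAPT libraries, 0.22 higher. The *BACE2*/*BACE1* ratio was 0.396, 0.389 and 0.384 in control and 0.372, 0.362 and 0.319 in DAPT libraries, 0.15 lower. None of the 4 ratios overlapped between the groups. How often other pairs of genes were as separate was not counted, and single genes did not overlap for 46.3% of those tested. Each had an exact two-sided permutation p of 0.1, the smallest that 20 arrangements of 3 against 3 libraries allow, and 0.1 after Benjamini-Hochberg adjustment over the 4. No such ratio could therefore pass 0.05 here.

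**Figure D4:**
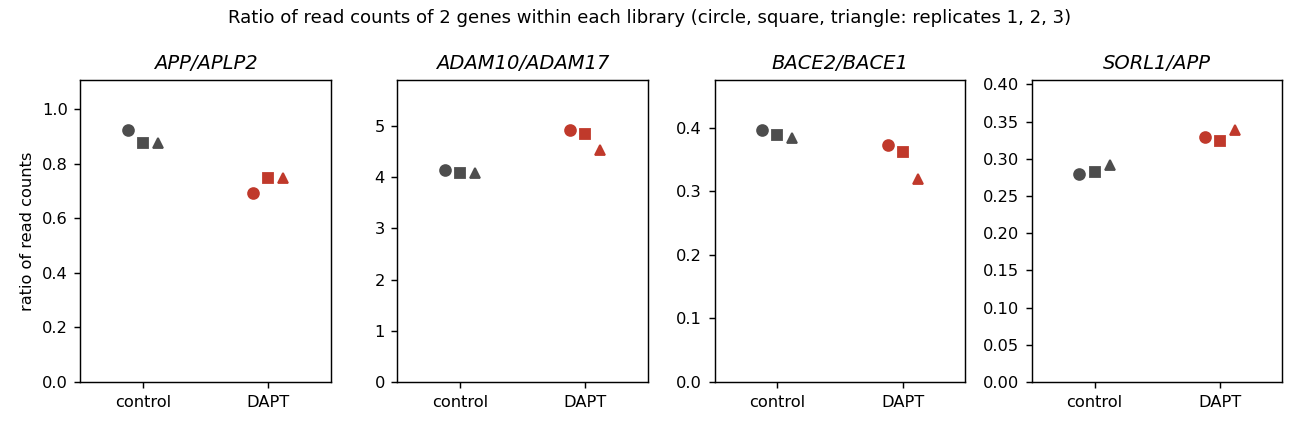
Ratio of the read counts of 2 genes within each library (y axis, from 0) for 4 pairs, with circle, square and triangle for replicates 1, 2 and 3. In each panel the 3 control points and the 3 DAPT points do not overlap: *APP*/*APLP2* falls from 0.877 or more to 0.749 or less, and *ADAM10*/*ADAM17* goes from 4.13 or less to 4.54 or more.

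The genes whose level followed each called gene most closely were taken from the 10140 tested genes with a mean of at least 10 CPM, by Pearson's r of log2 CPM over the 6 libraries. These r values are a description, since the 6 points fall into the 2 groups and share their libraries. Nearest to *APLP2* were *MAST2* (r = 0.9996), *SIKE1* (0.9992) and *BRPF3* (0.9989), with log2 fold changes of 0.37, 0.29 and 0.75. Nearest to *SORL1* were *SEC11C* (0.9969), *ZDHHC17* (0.9964) and *PLPP6* (0.996), and nearest to *ADAM10* were *NUB1* (0.9982), *MAN1A2* (0.9957) and *TUG1* (0.9941). An r of at least 0.95 was reached by 545 genes for *APLP2*, 386 for *SORL1* and 317 for *ADAM10*, so many genes had such a pattern. Between *APLP2* and *SORL1* themselves r was 0.9414.

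The genes around the 8 were grouped by role into 16 lists of 144 genes, of which 115 were tested. Of these, 20 rose and 23 fell, so 37.4% were called, and their median log2 fold change was 0.00. This was close to the 35.2% called over all tested genes, with 17.2% higher and 18.0% lower. The counts per list below are descriptions beside these shares. In the order of the pathway, the proteins that mature and place the sheddases come first. Of 3 tested proprotein convertases, which remove the prodomain of ADAM10, ADAM17 and BACE1, *FURIN* fell from 197 ± 11.0 to 153 ± 4.14 CPM (log2 fold change -0.36, edgeR adjusted p = 1.41e-05), *PCSK6* fell by 0.24 and *PCSK7* rose by 0.26 on the log2 scale. Of 6 TspanC8 tetraspanins, which escort ADAM10 to the cell surface, *TSPAN5* was called lower (-0.31, edgeR adjusted p = 0.025) although its groups overlapped, and the call was lost without control replicate 1 (-0.24, edgeR adjusted p = 0.0936). *TSPAN10*, by contrast, was at -0.39 (edgeR adjusted p = 0.0691) and passed without that library (-0.58, edgeR adjusted p = 0.000254), as did *TSPAN15* (-0.15, edgeR adjusted p = 0.0477). Among the 3 iRhoms and partners, which escort ADAM17, *RHBDF2* was lower (-0.23, edgeR adjusted p = 0.0183), while *RHBDF1* was at 0.02 and *FRMD8* at -0.12 (edgeR adjusted p = 0.869 and 0.12). Without control replicate 1, *FRMD8* was called lower too (-0.18, edgeR adjusted p = 0.0111). Scaled by library size alone, no gene of the TspanC8 or iRhom lists was called.

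None of 5 tested sheddase inhibitors was called. *TIMP3*, the inhibitor of ADAM17 held in the matrix, had a log2 fold change of -0.86 (edgeR adjusted p = 0.123) with 47.0 CPM in control replicate 1, the library with the highest fibroblast markers, and 17.3 to 27.6 CPM in the other 5. Without that library it fell by 0.49 on the log2 scale (edgeR adjusted p = 0.000216). *TIMP1* and *TIMP2*, with means of 112 to 118 and 111 to 112 CPM, were at -0.07 and -0.02. Of 6 other tested ADAM proteases of the membrane, *ADAM19* fell from 6.79 ± 0.50 to 3.60 ± 0.273 CPM (-0.91, edgeR adjusted p = 6.31e-05) and *ADAM9* was higher by 0.14 (edgeR adjusted p = 0.0381). *ADAM12* passed only without control replicate 1 among the libraries left out (-0.20, edgeR adjusted p = 0.042).

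γ-Secretase is the complex that DAPT blocks. *NCSTN*, its substrate receptor, rose from 196 to 236 CPM (log2 fold change 0.27, edgeR adjusted p = 0.000225). *PSEN2* (0.21), *APH1B* (0.17), *APH1A* (-0.15) and *PSENEN* (-0.26) did not pass. Without control replicate 1, *APH1A* was called lower (-0.19, edgeR adjusted p = 0.031).

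Among proteins shed by ADAM10 and ADAM17, 2 of 6 tested EGF receptor ligands rose, *BTC* by 0.63 and *HBEGF* by 0.35 on the log2 scale (edgeR adjusted p = 0.00178 and 0.02). Of 13 other tested substrates, *EPCAM* (0.27), *AXL* (0.24), *ICAM1* (0.20) and *MET* (0.18) rose and *SDC1* fell by 0.23. Without control replicate 1 the count was 6 higher and 1 lower, with *DSG2* and *CD46* added at 0.13 each (edgeR adjusted p = 0.024 and 0.0457). Of 7 tested BACE substrates, *SEZ6L2* (0.35) and *GLG1* (0.23) rose and *NRG1* (-0.68) fell. Of 27 tested γ-secretase substrates outside the APP family, 3 rose and 9 fell. The largest falls were those of *NOTCH3* (-0.78, edgeR adjusted p = 6.68e-09), *NRG1*, *EFNB1* (-0.64) and *NECTIN1* (-0.52). *CXCL16* (0.43), *CDH1* (0.27) and *DLL1* (0.16) rose, the last not without control replicate 1 (0.10, edgeR adjusted p = 0.151). Scaled by library size alone, this list had 7 higher and 7 lower, and without control replicate 1 it had 2 higher and 11 lower. *SORL1*, *APP*, *APLP1* and *APLP2* are γ-secretase substrates too, and their log2 fold changes of 0.24, 0.02, 0.22 and 0.31 all lay above the median of -0.05 for these 27 genes. By definition many of the 27 lie above that median as well, *CXCL16* and *CDH1* among them. *APP* and *APLP1* were not called.

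Several of these smaller calls were lost when 1 library was left out, which also leaves fewer libraries for the test. Over all genes, 4174 to 5618 were then called, against 5281 with all libraries. The call of *ADAM9* was lost without control replicate 2 or 3 or DAPT replicate 1 or 3 (edgeR adjusted p up to 0.2), and that of *TSPAN5* without control replicate 3 or DAPT replicate 1 or 2 as well (up to 0.141). The calls of *RHBDF2* and *HBEGF* were lost without control replicate 3 or DAPT replicate 2 or 3 (edgeR adjusted p up to 0.104 and 0.122), and those of *AXL* and *DLL1* without these libraries and 1 more, control replicate 2 and 1 (up to 0.116 and 0.154). *PCSK6* was lost without DAPT replicate 3 (edgeR adjusted p = 0.0835), *SEZ6L2* without DAPT replicate 1 (0.0509) and *ICAM1* without control replicate 2 or DAPT replicate 1 (up to 0.0861). *PSEN2* passed without DAPT replicate 1 (edgeR adjusted p = 0.0279), *PSENEN* without DAPT replicate 2 (0.00617), and *APH1A* without DAPT replicate 3 as well as without control replicate 1. *NCSTN*, *FURIN*, *PCSK7*, *ADAM19*, *BTC*, *EPCAM*, *MET*, *SDC1*, *GLG1*, *NRG1*, *NOTCH3*, *EFNB1*, *NECTIN1*, *CXCL16* and *CDH1* stayed called in each of the 16 alternatives.

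**Figure D5:**
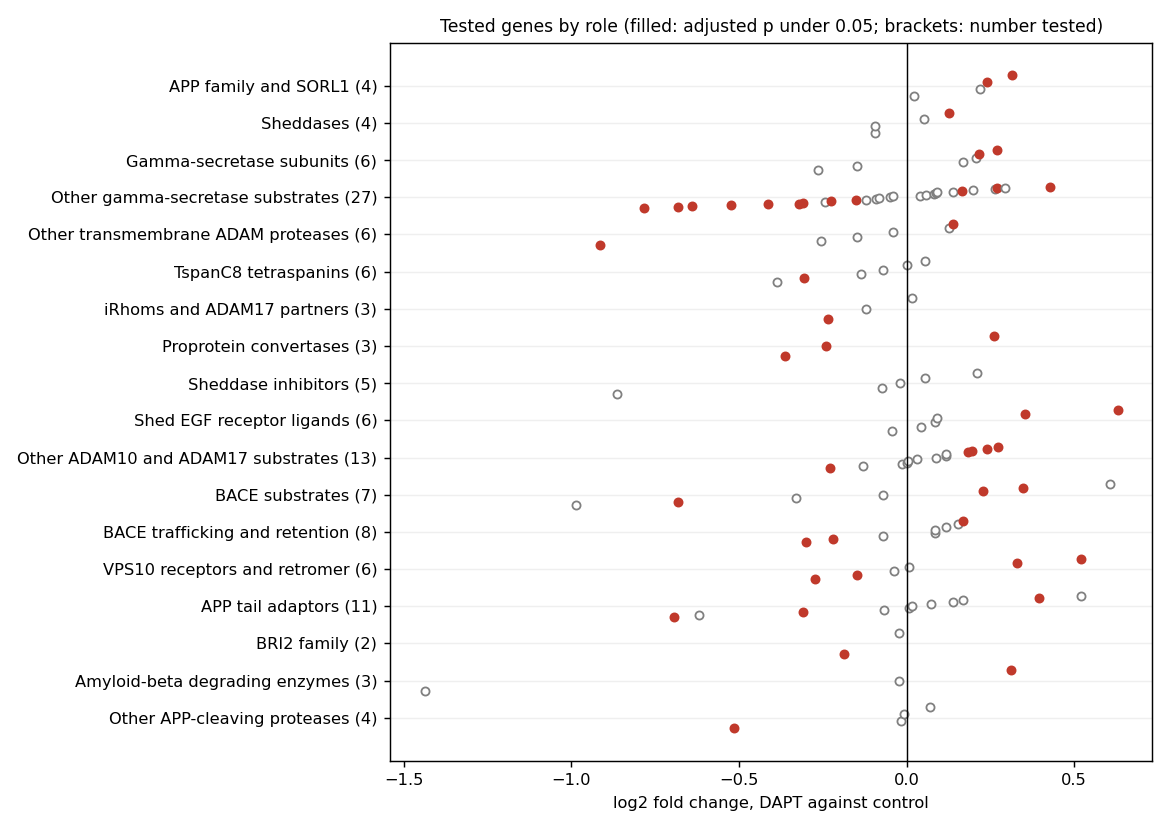
Log2 fold change of DAPT against control (x axis) of each tested gene in the 18 lists by role, the APP family, *SORL1* and the sheddases at the top, with filled points for an adjusted p under 0.05 and the number tested in brackets. The 8 genes lie between -0.10 and 0.31, while the other lists reach from -1.44 (*MME*, not called) to 0.63 (*BTC*).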

How the data were processed

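RNA was sequenced from 3 control and 3 DAPT libraries, grouped by the treatment label. The authors trimmed 75-base single-end reads with Trim Galore, aligned them with HISAT2 to GRCh38 and deposited raw read counts per gene. Per the file headers, featureCounts 1.6.3 counted reads over exons, by strand, with Ensembl release 96. The submitters' processing notes name HTSeq and DESeq2 instead. Of 58884 genes, 58472 were matched to current symbols through the GENCODE 44 gene names. The paired symbols gave all 8 genes.

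Genes with too few reads were removed by filterByExpr (minimum count 10), leaving 15001. Counts were scaled by TMM and tested with edgeR 4.0.16 (R 4.3.3, robust quasi-likelihood, no covariate), with Benjamini-Hochberg adjustment and a threshold of 0.05. The SE was derived from the F statistic. CPM values are TMM-scaled. The test was also run on simulated counts with known changes. Ratios within a library, with 0.5 added to each count, were compared by exact permutation. DESeq2 1.42.0, limma 3.58.1 (voom), other scalings, filters, a replicate block and leaving out each library were alternatives. Total counts ranged from 12276313 to 16317672 per library, and the median biological coefficient of variation was 0.0599. Libraries of a group differed by more than sampling noise (chi-square per gene 1.58 to 5.68), so none was counted as a duplicate.

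The 8 genes and the gene lists were chosen with earlier results of these data known. All 8 genes were named, with up to 4 called genes of largest change per list, every gene of lists of 6 or fewer where this helped, the 3 genes most alike each called gene, and *HES1*. Other names (*IAH1*, *BACE1-AS*, *RNF214*, *COL1A2*, *CDH5*, *VWF*, *TIMP3*, *MME* and genes whose call changed when a library was left out), like the GC box, were chosen after values were seen. Protein sequences were not used here. Values of some other genes are not reported here.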

Additional observations from a re-analysis of the deposited data

How the results depend on the processing

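*APLP2* and *SORL1* stayed called higher, and *APP*, *APLP1*, *ADAM17*, *BACE1* and *BACE2* stayed uncalled with the same sign, in all 16 alternatives of the fit. *ADAM10* kept its sign in all 16 and lost its call in 9: its log2 fold change was 0.13 in the likelihood ratio test (adjusted p = 0.0587), 0.12 with RLE scaling (0.05001), 0.12 with upper quartile scaling (0.0555), 0.13 with no filter (0.072), and 0.10 to 0.14 without any 1 of the 5 libraries other than control replicate 1 (edgeR adjusted p 0.0699 to 0.197). Without control replicate 1 it stayed called at 0.15 (edgeR adjusted p = 0.00935). The cause was not tested. Of the 8 genes, 2 or 3 were called when 1 library was left out. Over all genes, 5281 calls became 3338 at an adjusted p under 0.01 and 356 with a 2-fold change, and 4174 to 5618 when 1 library was left out. The 2574 genes called higher became 1668 in DESeq2, 1516 at an adjusted p under 0.01 and 90 with a 2-fold change (1901 to 2726 when 1 library was left out). The 2707 called lower became 266 with a 2-fold change (2190 to 2892 when 1 library was left out). Scaled by library size alone, 3445 rose and 2156 fell, so that 61.5% of calls were higher against 48.7%, and the median of all genes moved from 0.01 to 0.06. Same-numbered libraries did not deviate together (r = 0.0194, 0.0376 and -0.0193 over 14199 genes), so the numbers were not taken as pairs. With a replicate block, 5295 genes were called, 2558 higher and 2737 lower, with 3 of the 8 among them, and *ADAM10* had an edgeR adjusted p of 0.0399. Each within-library ratio then had an exact permutation p of 0.25, the smallest that 3 pairs of libraries allow. The block also brought *PSEN2* (edgeR adjusted p = 0.0477), *APH1A* (0.0266), *PSENEN* (0.0344) and *MME* (0.0418) past the threshold, with the same signs. In DESeq2, *DLL1*, *TSPAN5*, *RHBDF2*, *PCSK6*, *HBEGF*, *AXL*, *BIN1* and *APBB1* were not called (adjusted p 0.0539 to 0.121), while *TIMP3* (0.0398) and *MME* (0.0438) were. The log2 ratio differences ranged over -0.31 to -0.25 (*APP*/*APLP2*), 0.19 to 0.25 (*ADAM10*/*ADAM17*), -0.20 to -0.09 (*BACE2*/*BACE1*) and 0.20 to 0.24 (*SORL1*/*APP*) when 1 library was left out. Depth limited *APLP1* most, with as few as 112 reads in a library.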

Other observations

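Lists on the routing of the APP proteins after synthesis were mixed. *SORT1*, which encodes sortilin, a relative of SORL1 in the VPS10 receptor family, rose from 122 ± 2.92 to 175 ± 6.74 CPM (SD, n = 3), with a log2 fold change of 0.52 (edgeR adjusted p = 5.52e-08) beside 0.24 for *SORL1*. Of 6 tested VPS10 receptors and retromer subunits other than *SORL1*, 2 rose (*SORT1* and *VPS26B*, at 0.33) and 2 fell (*VPS29* at -0.27 and *VPS35* at -0.15, the last not called without control replicate 2 or DAPT replicate 2, adjusted p up to 0.069 in edgeR). Retromer is the coat that returns SORL1 and its cargo from endosomes. Of 8 tested genes of BACE trafficking and retention, *RTN3* rose (0.17) and *RTN4* (-0.30) and *BIN1* (-0.22) fell. The calls of *RTN3* and *BIN1* were lost without control replicate 3 or DAPT replicate 2 or 3, and that of *BIN1* also without control replicate 2 (edgeR adjusted p up to 0.0864 and 0.117).

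Of 11 tested adaptors of the APP tail, *APBB2* rose (0.40) and *SHC1* (-0.31) and *APBB1* (-0.69) fell. *APBB1*, which encodes FE65, was at 3.15 ± 0.744 and 1.97 ± 0.0470 CPM, and its call was lost without control replicate 1 (edgeR adjusted p = 0.129) and without DAPT replicate 2 or 3. *ITM2B*, encoding the APP-binding protein BRI2, was at 1271 CPM in control and fell by 0.19 on the log2 scale (edgeR adjusted p = 0.00375), while *ITM2C* was at -0.02. Of 3 tested enzymes that degrade amyloid-β, *ECE1* rose (0.31), *IDE* was at -0.02, and *MME* was at -1.44 and not called (edgeR adjusted p = 0.299), or -0.11 without control replicate 1 (edgeR adjusted p = 0.838). *MME* passed in 3 of 16 alternatives, DESeq2, the replicate block and the fit that was not robust, each of them with control replicate 1 included. Of 4 tested other proteases known to cut APP, *CTSB*, a lysosomal cathepsin, fell from 692 ± 7.46 to 484 ± 2.08 CPM (-0.52, edgeR adjusted p = 1.08e-08).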
